A study of Homo sapiens with 6 samples.

Results

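The mitochondrial carrier family SLC25 was examined in RNA-seq data of EJ, an established cell line from a human bladder cancer. Members were all genes of the log2 CPM tables (log2 of each gene's reads relative to the library's total, with a prior count) whose symbol begins with SLC25A, and there were 46 of them among 15953 genes. SLC25A31 and SLC25A48 have no row in these tables and were not analysed here. The control group held 3 libraries of cells labelled shNC, a negative control hairpin, and the STIL-knockdown group held 3 libraries of cells labelled shSTIL, a hairpin against the centriole gene STIL. According to the methods, the cells were stable knockdown cells and their controls, and the hairpins were carried by a lentivirus. Both groups share the EJ background and, by the labels and the methods, a hairpin vector. The headings inside the tables and the series design text name the groups by siRNA instead, and the labels were followed here. Whether the libraries came from separate cultures is not said in the labels, so P-values measure the spread between these libraries. The libraries held 16214772 to 16431243 reads in control cells and 16734469 to 16901634 in STIL-knockdown cells.

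SLC25 proteins are carriers encoded in the nucleus, and most of them lie in the mitochondrial inner membrane. They move ADP and ATP, phosphate, carboxylates, amino acids, cofactors and iron between the cytosol and the matrix, usually by exchanging one solute for another. The ADP/ATP carriers SLC25A4, SLC25A5 and SLC25A6 export the ATP made in the matrix in exchange for ADP, and the citrate carrier SLC25A1 supplies citrate for lipid synthesis in the cytosol.

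The results below turn on SLC25A5 and SLC25A6, which are DEGs in opposite directions, so the first 90 coding bases of the 3 ADP/ATP carriers are shown to let their sequences be compared. They come from GENCODE 29 (GRCh38) and lie in the first coding exon at chrX:119468516-119468605 on the plus strand for SLC25A5, chrX:1391920-1392009 on the minus strand for SLC25A6 and chr4:185143373-185143462 on the plus strand for SLC25A4. Capitals mark the 30 positions at which the 3 genes are not all alike.
SLC25A5: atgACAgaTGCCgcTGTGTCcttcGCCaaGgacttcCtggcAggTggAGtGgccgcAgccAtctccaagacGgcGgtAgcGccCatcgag
SLC25A6: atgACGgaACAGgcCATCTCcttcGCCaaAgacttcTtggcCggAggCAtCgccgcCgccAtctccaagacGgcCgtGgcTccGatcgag
SLC25A4: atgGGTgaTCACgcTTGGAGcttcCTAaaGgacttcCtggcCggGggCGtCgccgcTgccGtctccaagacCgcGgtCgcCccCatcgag

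SLC25A5 and SLC25A6 differ at 20 of these 90 positions. Over the whole coding sequence, SLC25A5 and SLC25A6 were 78.8% identical, SLC25A4 and SLC25A6 77.8%, and SLC25A4 and SLC25A5 77.2%. The longest stretch that the transcripts of SLC25A5 and SLC25A6 share without a difference was 29 bases. Of the 50-base windows of either whole transcript, 0% occurred in the other. GENCODE 29 lists 9 pseudogenes of SLC25A5 and 6 of SLC25A6. Other members have them too, among them SLC25A1 and SLC25A15 with 5 each and SLC25A51 with 3. Reads that fit a gene and a pseudogene cannot be placed with certainty.

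STIL, the targeted gene, had a log2 CPM of 5.98, 6.10 and 6.01 in control cells and 4.05, 4.06 and 4.01 in STIL-knockdown cells, and 25.2% of the control level was left (log2 fold change -1.99 with a standard error, SE, of 0.05, limma adjusted p = 6.1e-12). The cells carried epithelial keratin RNA. The 6 measured epithelial markers summed to 1072 to 1130 CPM in control cells and 967 to 999 CPM in STIL-knockdown cells. Of these 6, CDH1 had 0 to 3 reads in any library, KRT5 0 to 1 and EPCAM 15 to 21. Within that sum KRT8 was lower (log2 fold change -0.70) and KRT7 higher (0.49), and KRT18 did not pass the test (-0.05). The 4 mesenchymal markers summed to 1562 to 1603 CPM in control cells and 969 to 988 CPM in STIL-knockdown cells, nearly all of it VIM. VIM and FN1 were lower (log2 fold changes -0.68 and -1.19), CDH2 and ZEB1 did not pass the test, and the part of these changes in the carrier results was not tested. In bulk RNA, fewer cells of a type and less RNA per cell cannot be told apart. The urothelial luminal markers (5 of 6 measured, with GATA3 at 4 to 9 reads) summed to 22.0 to 23.9 and 24.5 to 26.3 CPM, mostly PPARG, which was higher (log2 fold change 0.26), while UPK1B was lower (-1.12) at 5 to 20 reads. The leukocyte markers (2 of 5 measured) summed to 10.9 to 12.2 and 12.8 to 14.8 CPM, nearly all of it CD68, while PTPRC and CD3E have no row. The 3 endothelial markers summed to less than 1 CPM in each library.

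The family changed in both directions after STIL silencing, with little net shift. Among the 46 members, 10 were higher, 10 were lower and 26 did not pass an adjusted p of 0.01 in limma. Each direction held 21.7% of the members, against a background of 23.5% of all genes called higher and 23.6% called lower, so the share of DEGs in the family was near that of all genes. Among the 37 members with an average log2 CPM of 1 or more, the same 20 DEGs made up 54.1%, and in the 11319 genes of that level 30.5% were higher and 31.4% lower. Control and STIL-knockdown values were fully separate for 30 members, or 65.2%, against 60.3% of all genes. The median log2 fold change was 0.05 over the members and 0.01 over all genes, and the median absolute log2 fold change was 0.28 and 0.30. The log2 fold changes of the members ran from -1.0 for SLC25A10 to 0.77 for SLC25A38. For 13 of these 20 the change was under 1.5-fold. In 9 of them, SLC25A6, SLC25A13, SLC25A16, SLC25A26, SLC25A32, SLC25A36, SLC25A39, SLC25A42 and SLC25A51, the call was lost when at least 1 library was left out, with limma adjusted p of up to 0.0126 for SLC25A32 and up to 0.118 for SLC25A51.

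**Figure D1:**
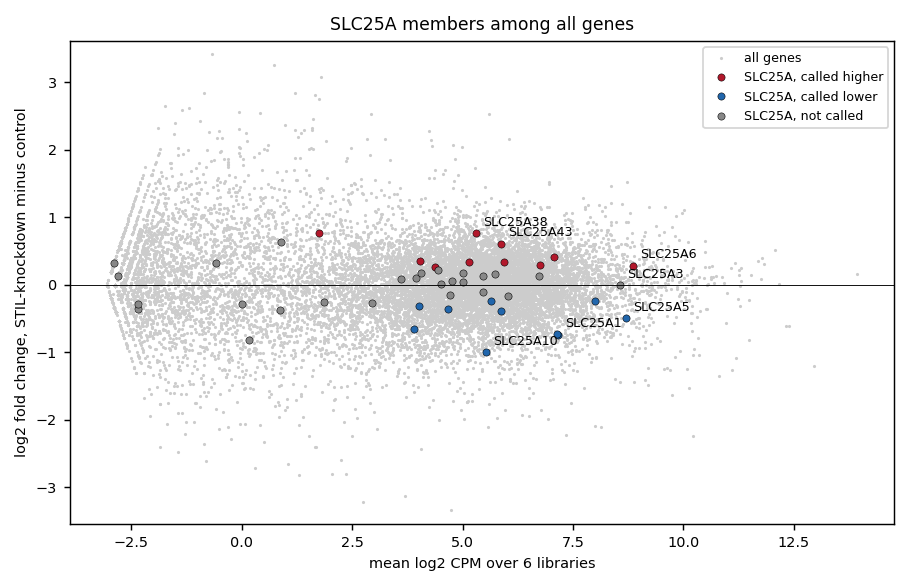
Mean log2 CPM over the 6 libraries (horizontal axis) against the log2 fold change, STIL-knockdown minus control (vertical axis), for all 15953 genes in grey and the 46 SLC25A members in colour. The 10 higher and 10 lower members lie inside the cloud of all genes, and all 20 have a mean log2 CPM above 1.

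The carriers differed widely in level. Per kilobase of transcript, SLC25A5 was the highest in control cells at 388 ± 7.28 CPM per kb (SD, n = 3), before SLC25A3 at 226 ± 4.24, SLC25A6 at 205 ± 14.5, SLC25A39 at 173 ± 9.53 and SLC25A1 at 112 ± 3.77. In STIL-knockdown cells SLC25A5 was still the highest, at 275 ± 14.9 CPM per kb, and SLC25A6 stood at 249 ± 7.97, above SLC25A3 at 225 ± 1.79. The next were SLC25A39 at 147 ± 4.61 and SLC25A1 at 67.3 ± 1.26 CPM per kb. These levels use 1 coding transcript per gene, and another transcript would give another length. At the other end, 9 members had a mean log2 CPM below 1 (SLC25A2, SLC25A18, SLC25A21, SLC25A34, SLC25A41, SLC25A45, SLC25A47, SLC25A52 and SLC25A53) and 0 of them were DEGs by limma. At an unadjusted p under 0.05 there were 2, SLC25A21 and SLC25A34, and edgeR called 1 of the 9, SLC25A34, and DESeq2 0.

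The adenine nucleotide and phosphate carriers held 1 higher and 2 lower DEGs among 8 measured members, with a median log2 fold change of 0.04. SLC25A5, the ADP/ATP carrier that proliferating cells commonly use, had a log2 CPM of 8.98, 8.95 and 8.92 in control cells and 8.44, 8.54 and 8.38 in STIL-knockdown cells. Every STIL-knockdown library lay below every control library, and the log2 fold change was -0.50 (SE 0.04, limma adjusted p = 1.2e-07). SLC25A6, which exchanges the same nucleotides, had a log2 CPM of 8.82, 8.61 and 8.73 in control cells and 8.99, 8.97 and 9.06 in STIL-knockdown cells. Here every STIL-knockdown library lay above every control library, and the log2 fold change was 0.28 (SE 0.05, limma adjusted p = 0.000128). Without control replicate 3, or without any 1 STIL-knockdown library, SLC25A6 missed the threshold, with limma adjusted p of up to 0.0324 and a log2 fold change that stayed between 0.23 and 0.33. SLC25A4, the form typical of heart and skeletal muscle, had 4.70, 4.90 and 4.77 in control cells and 4.61, 4.60 and 4.72 in STIL-knockdown cells. Its groups overlapped, and its log2 fold change of -0.15 (SE 0.07) did not pass the test (limma adjusted p = 0.0788).

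On the linear scale, SLC25A5 went from 494 ± 9.28 CPM to 350 ± 19.0 CPM (SD, n = 3), and SLC25A6 from 423 ± 29.9 to 513 ± 16.4 CPM. The sum of SLC25A4, SLC25A5 and SLC25A6 was 944 ± 33.2 CPM in control cells and 888 ± 9.10 CPM in STIL-knockdown cells, or 94.1% of the control level. SLC25A5 made up 51.4%, 54.0% and 51.7% of that sum in control cells and 39.4%, 41.4% and 37.4% after knockdown. SLC25A6 made up 46.0%, 42.8% and 45.4% in control cells and 57.8%, 55.9% and 59.7% in STIL-knockdown cells. The log2 ratio of SLC25A5 to SLC25A6 CPM was above 0 in all 3 control libraries (0.16, 0.34 and 0.19) and below 0 in all 3 STIL-knockdown libraries (-0.55, -0.43 and -0.67). The order of their CPM was therefore reversed between the groups, while per kilobase SLC25A5 stayed above SLC25A6 in both. The exons of SLC25A5 overlap those of the antisense gene SLC25A5-AS1, and whether the counting used strand is not given in the sources used here.

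**Figure D2:**
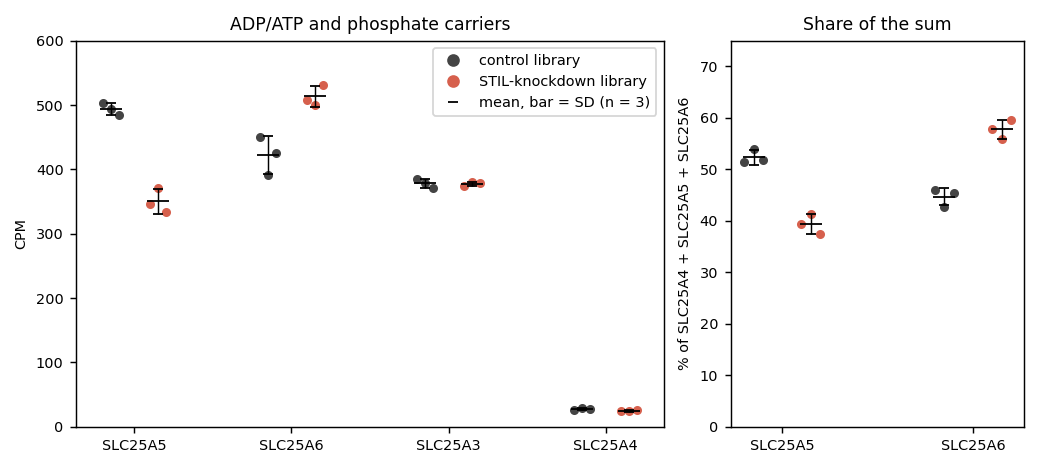
CPM of the ADP/ATP and phosphate carriers in each library (left, vertical axis from 0) and the share of SLC25A5 and SLC25A6 in the ADP/ATP carrier sum in percent (right), with each library as a point and the mean and SD (n = 3) as a bar. SLC25A5 falls from 494 to 350 CPM and SLC25A6 rises from 423 to 513 CPM, while SLC25A3 lies between 371 and 385 CPM in all 6 libraries.

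SLC25A3 carries phosphate for ATP synthesis and also delivers copper to the matrix. Its log2 CPM was 8.59, 8.57 and 8.54 in control cells and 8.55, 8.57 and 8.56 in STIL-knockdown cells, with overlapping groups and a log2 fold change of 0.00 (SE 0.03, limma adjusted p = 0.935). The calcium-regulated ATP-Mg/phosphate carriers set the adenine nucleotide content of the matrix. Of these, SLC25A23 had a log2 CPM of 7.54, 7.48 and 7.50 in control cells and 6.78, 6.80 and 6.77 in STIL-knockdown cells. The groups were well apart, with a log2 fold change of -0.72 (SE 0.03, limma adjusted p = 6.04e-10), and the control level was cut to 60.6%. Its paralogs did not pass the test, with log2 fold changes of 0.13 for SLC25A24 (limma adjusted p = 0.0342), 0.09 for SLC25A25 and 0.32 for SLC25A41, which had only 3 to 16 reads per library.

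The carboxylate carriers had the lowest median of the groups, at -0.78, with 2 of 4 members lower and 0 higher. SLC25A10, which exchanges malate and succinate for phosphate, was the member with the largest fall. Its log2 CPM was 6.11, 5.95 and 6.01 in control cells and 4.92, 5.05 and 5.09 in STIL-knockdown cells. The groups did not overlap, and 49.9% of the control level was left (log2 fold change -1.0, SE 0.06, limma adjusted p = 5.3e-09). An exon of SLC25A10 shares bases with the same-strand gene AC139530.2, so part of its reads may be uncertain. SLC25A1, the citrate carrier, had a log2 CPM of 7.58, 7.49 and 7.54 in control cells and 6.82, 6.79 and 6.77 in STIL-knockdown cells. All 3 STIL-knockdown libraries were lower, at 59.9% of the control level (log2 fold change -0.74, SE 0.03, limma adjusted p = 1.13e-09). The oxoglutarate/malate carrier SLC25A11 did not overlap between the groups either, but its log2 fold change of -0.16 did not pass the test (limma adjusted p = 0.0204). SLC25A21, an oxodicarboxylate carrier, had 9 to 31 reads per library, overlapping groups and a log2 fold change of -0.82 that did not pass (limma adjusted p = 0.0283).

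The enzymes on both sides of citrate export were measured as a separate list. All 3 of them were lower, with a median log2 fold change of -0.49, and 2 or 3 were lower when 1 library was left out. ACLY, which splits exported citrate into acetyl-CoA in the cytosol, had the largest fall of the list, from a mean log2 CPM of 9.18 to 8.68 (log2 fold change -0.50, limma adjusted p = 1.44e-08). CS, which makes citrate in the matrix, is named with its value in view and had a log2 fold change of -0.49. Of the 4 malate-aspartate shuttle enzymes, 1 was higher and 2 were lower. GOT1, the cytosolic aspartate aminotransferase, was higher by 0.42 on the log2 scale, and MDH1, the cytosolic malate dehydrogenase, fell by 0.78 on the log2 scale.

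**Figure D3:**
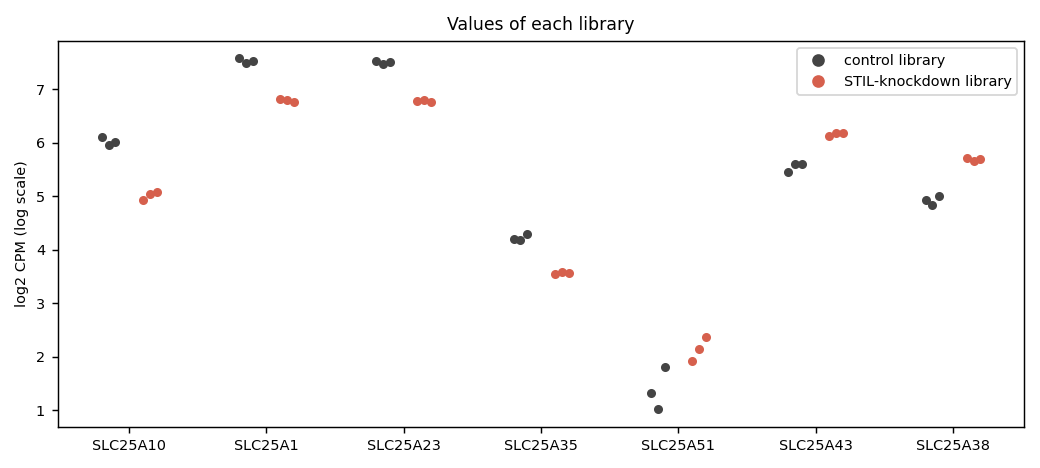
Log2 CPM of each library (vertical axis) for the 7 members that are DEGs with an absolute log2 fold change of at least 0.5 at an average log2 CPM of 1 or more, with control libraries in grey and STIL-knockdown libraries in red. The groups do not overlap for any of the 7, and the 3 control libraries spread most for SLC25A51, from 1.02 to 1.81.

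The amino acid carriers held 2 higher and 1 lower DEGs among 9 members, with a median log2 fold change of 0.13. SLC25A38 brings glycine into the matrix for the first step of haem synthesis, and it was the member with the largest rise. Its log2 CPM was 4.92, 4.83 and 5.0 in control cells and 5.71, 5.66 and 5.70 in STIL-knockdown cells. The groups were apart by more than 0.6 on the log2 scale, and the mean rose to 171% of the control level (log2 fold change 0.77, SE 0.05, limma adjusted p = 3.21e-08). SLC25A44, a carrier of branched-chain amino acids, was higher by 0.33 (limma adjusted p = 6.38e-05). The aspartate/glutamate carriers serve the malate-aspartate shuttle, and SLC25A13 was lower (log2 fold change -0.24, limma adjusted p = 0.00335). Its paralog SLC25A12 had a value of 0.13 that did not pass (limma adjusted p = 0.0349). The ornithine carrier SLC25A15, the glutamate carrier SLC25A22 and the basic amino acid carrier SLC25A29 had log2 fold changes of 0.21, 0.16 and -0.11, with limma adjusted p of 0.0126, 0.0278 and 0.0443. SLC25A2 and SLC25A18, also carriers of ornithine and glutamate, had at most 4 reads in any library.

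The cofactor, nucleotide and carnitine carriers had 4 higher and 2 lower DEGs among 11 members, and a median log2 fold change of 0.17. SLC25A51, the NAD+ carrier, had a log2 CPM of 1.32, 1.02 and 1.81 in control cells and 1.93, 2.14 and 2.36 in STIL-knockdown cells. The groups were close but did not overlap, and the log2 fold change was 0.76 (SE 0.21, limma adjusted p = 0.00664). It rests on 31 to 54 reads in control cells and 63 to 85 in STIL-knockdown cells, and the call was lost without any 1 of the 6 libraries. The coding sequence of SLC25A51 is 94.5% identical to that of SLC25A52. Of the 50-base windows of the whole SLC25A51 transcript (1691 bases, 891 of them coding), 21.1% occur unchanged in that of SLC25A52. SLC25A52 was listed with 0 to 2 reads, so the division of reads between the paralogs is uncertain. SLC25A26, which imports S-adenosylmethionine, SLC25A36, which carries pyrimidine nucleotides, and SLC25A42, which carries coenzyme A, were higher by 0.35, 0.30 and 0.26 on the log2 scale. SLC25A32, linked to folate and FAD, fell by 0.36 on the log2 scale (limma adjusted p = 0.000228), and SLC25A16 fell by 0.31 (limma adjusted p = 0.00266). Among the members that did not pass were others with log2 fold changes of 0.17 for the pyrimidine nucleotide carrier SLC25A33, 0.10 for the carnitine/acylcarnitine carrier SLC25A20 and 0.04 for SLC25A17, a carrier of peroxisomes. Of the 5 carnitine shuttle enzymes, which work with SLC25A20, 3 were lower and 1 was higher, with CRAT at a log2 fold change of -0.49 and CPT1B at 0.47.

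The iron and glutathione carriers had 1 higher and 2 lower DEGs among 4 members. SLC25A37, which imports iron and is best known from developing red cells, was higher by 0.41 on the log2 scale, at 1827 to 1923 reads in control cells and 2628 to 2669 in STIL-knockdown cells (SE 0.03, limma adjusted p = 1.89e-07). SLC25A28, the iron carrier of most other tissues, differed by 0.18 on the same scale and did not pass (limma adjusted p = 0.033). The glutathione carrier SLC25A39 fell by 0.24 on the log2 scale (limma adjusted p = 0.000199), and its paralog SLC25A40 fell by 0.39 (limma adjusted p = 1.02e-05). The list of haem and iron-sulphur genes, which use the iron and glycine these carriers bring, had 4 higher, 3 lower and 4 uncalled members and a median log2 fold change of 0.10. Leaving out 1 library gave 1 or 2 lower members, with 1 without any 1 control library or STIL-knockdown replicate 1, and the replicate block gave 2. HSCB, a co-chaperone of iron-sulphur cluster transfer, had the largest rise, 0.59, and FECH, which inserts iron to complete haem, the largest fall, -0.57 (limma adjusted p = 6.74e-08).

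The uncoupling protein-like members SLC25A14, SLC25A27 and SLC25A30 held 0 DEGs of 3 by limma at an adjusted p of 0.01, with log2 fold changes of -0.28, -0.25 and 0.02. At an unadjusted p under 0.05 there was 1 of 3 in limma, and edgeR and DESeq2 called 0. Among family members whose symbols begin otherwise, UCP2, which is expressed in many tissues, had a mean log2 CPM of 4.91 in control cells and 4.87 in STIL-knockdown cells (log2 fold change -0.04, limma adjusted p = 0.647). UCP3 had 11 to 26 reads and differed by 0.58 on the log2 scale (limma adjusted p = 0.0433), and UCP1, the uncoupling protein of brown fat, had 0 to 2 reads. MTCH1 and MTCH2, relatives of the carriers in the outer membrane, were both lower, with 64.7% and 66.2% of the control level left. Their log2 fold changes were -0.63 (limma adjusted p = 1.23e-09) and -0.59 (limma adjusted p = 9.85e-09).

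The other members, whose solutes are less settled, held 2 higher and 1 lower DEGs of 7. SLC25A43 had a log2 CPM of 5.45, 5.61 and 5.61 in control cells and 6.12, 6.19 and 6.18 in STIL-knockdown cells. All 3 STIL-knockdown libraries were higher, at 152% of the control level (log2 fold change 0.61, SE 0.05, limma adjusted p = 2.07e-07). SLC25A35 had a log2 CPM of 4.19, 4.18 and 4.30 in control cells and 3.54, 3.58 and 3.56 in STIL-knockdown cells. It fell in all 3, to 63.2% of the control level (log2 fold change -0.66, SE 0.07, limma adjusted p = 4.7e-06), and its exons overlap RANGRF on the other strand. SLC25A46, which sits in the outer membrane and takes part in mitochondrial fission and fusion, was higher by 0.33 on the log2 scale (limma adjusted p = 2.55e-05). SLC25A34 had 19 to 24 reads in control cells and 34 to 42 in STIL-knockdown cells, without overlap, and a log2 fold change of 0.63 that did not pass (limma adjusted p = 0.0131). SLC25A45, SLC25A47 and SLC25A53 had 0 to 34 reads per library and did not pass.

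**Figure D4:**
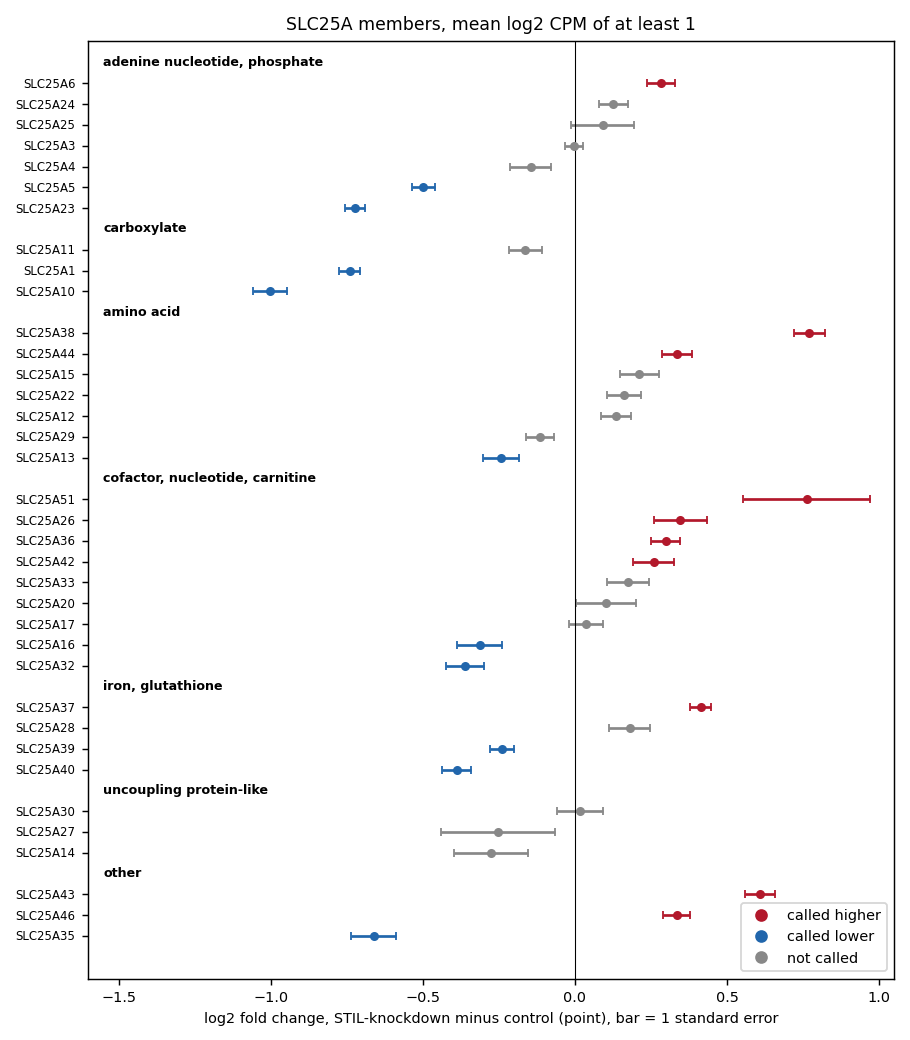
Log2 fold change, STIL-knockdown minus control (horizontal axis), with 1 standard error as a bar, for 36 of the 37 members with an average log2 CPM of 1 or more, ordered by family group. Red and blue points are the 10 higher and 10 lower DEGs, and each group but the carboxylate and uncoupling protein-like carriers holds both colours.

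Members close in sequence were compared next. By coding identity, 12 pairs of members were each other's nearest relative. SLC25A5/SLC25A6 was the only pair with DEGs in opposite directions, and SLC25A39/SLC25A40 was the only pair with DEGs in the same direction. In 6 pairs 1 member was a DEG, among them SLC25A23 (-0.72) beside SLC25A25 (0.09) and SLC25A37 (0.41) beside SLC25A28 (0.18), and 4 pairs held no DEG. These counts include pairs with SLC25A2, SLC25A18, SLC25A47 or SLC25A52. These members had at most 4 reads in any library, so a call was hardly within reach for them. The calls of SLC25A6 and SLC25A39 are among those lost when 1 library was left out. SLC25A34 (0.63) and SLC25A35 (-0.66) lay further apart than SLC25A6 and SLC25A5, but SLC25A34 missed the threshold (limma adjusted p = 0.0131). Without the mean-variance trend SLC25A34 passed and SLC25A6 did not, so the opposite pair depended on the setting. edgeR called both SLC25A34 and SLC25A6, and DESeq2 called SLC25A6 but not SLC25A34. A difference between the members of a pair was not tested.

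**Figure D5:**
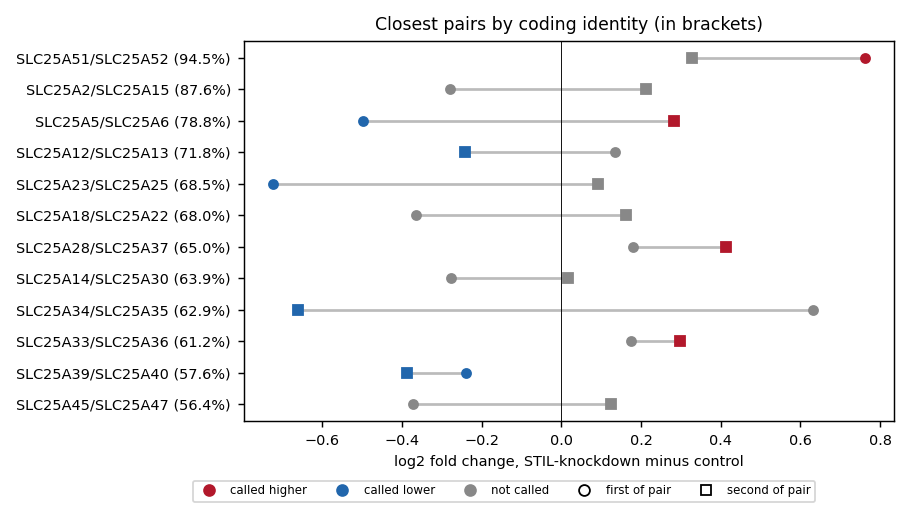
Log2 fold changes, STIL-knockdown minus control (horizontal axis), of the 12 pairs of members that are each other's nearest relative by coding identity, with the identity in brackets, the first member as a circle and the second as a square. SLC25A5 at -0.50 and SLC25A6 at 0.28 are the only pair with 1 blue and 1 red point. SLC25A34 at 0.63 and SLC25A35 at -0.66 lie further apart, but SLC25A34 did not pass an adjusted p of 0.01 in limma.

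Some members are also neighbours on a chromosome. Within 50000 bases of each other lay 3 pairs of members. On chromosome X, SLC25A43 and SLC25A5 are both on the plus strand with 13921 bases between them, and their log2 fold changes were 0.61 and -0.50. On chromosome 19, SLC25A41 and SLC25A23 lie 2299 bases apart, and SLC25A23 alone was a DEG, but SLC25A41 had only 3 to 16 reads per library. On chromosome 14, SLC25A29 and SLC25A47 lie 16789 bases apart, and neither was a DEG, with SLC25A47 at 0 to 2 reads per library. Exons of 18 members, 6 of them DEGs, overlap exons of a gene on the other strand, and 5 members, 3 of them DEGs, overlap a gene on the same strand. For scale, 43.5% of all 46 members and 47.1% of all genes were DEGs. These sets are small, and a link between overlap and the calls was not tested.

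Promoters were read from RefSeq (GRCh38.p14) as the 250 bases before and 50 after the start of each gene, and 38 of the 46 members had an entry. The E-box CACGTG, which reads the same on both strands and is bound by MYC, USF and TFE family factors, occurred in 6 of the 38 member promoters (15.8%) and in 7.45% of all 27195 promoters. It was found in 4 of 9 higher members, 1 of 7 lower members and 1 of 22 that did not pass, and the calls of SLC25A36, SLC25A51 and SLC25A13 among them are lost in some fits that leave out 1 library. Among all genes with an average log2 CPM of 1 or more, it was found in 11.3% of the higher, 9.64% of the lower and 9.92% of the other genes. These motifs were chosen with the fold changes known, so the counts are a description without a test. The 30 bases around each match, all before the RefSeq start, are shown in the direction of the gene, with the E-box in capitals, for the 4 higher members first.
SLC25A36: gcccgtagggatCACGTGaaagaacactgc
SLC25A38: tcagaacaccctCACGTGacaagcgtccca
SLC25A46: agaggctataatCACGTGctccgaagactt
SLC25A51: cggtgtctccctCACGTGaccccaacagcg
SLC25A13: gcgcagcggggtCACGTGtccctgtccagc
SLC25A33: tccggcccccgcCACGTGacggccgcgcgc

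The E-box began 143, 44, 47 and 59 bases before the RefSeq start of SLC25A36, SLC25A38, SLC25A46 and SLC25A51. GENCODE 29 starts 3 of these genes, SLC25A38, SLC25A46 and SLC25A51, further upstream, so that by its gene bounds the E-box lies after the start. The stretches lie at chr3:140941681-140941710, chr3:39383314-39383343, chr5:110738948-110738977 on the plus strand and chr9:37904169-37904198 on the minus strand. For SLC25A13, which was lower, it began 154 bases before the start, in chr7:96322235-96322264 on the minus strand, and for SLC25A33, which did not pass, 26 bases before it, in chr1:9539427-9539456 on the plus strand. Of the other motifs searched on both strands, CCAAT occurred in 19 of the 38 member promoters and 35.7% of all promoters, and in 32.5% of the higher, 41.2% of the lower and 37.5% of the other genes with an average log2 CPM of 1 or more. The E2F words TTTCCCGC, TTTCGCGC, TTTGCCGC and TTTGGCGC occurred in 3 of 38 member promoters (7.89%, against 3.34% of all), none of them of a DEG, and in 4.69%, 7.44% and 4.98% of those higher, lower and other genes. The NRF1 word GCGCATGC was in 0 of 38 member promoters and 3.28% of all, and in 7.2%, 5.08% and 5.46% of those genes. No motif searched contains another.

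The proteins that bring carriers into the membrane and the other transporters of mitochondria were counted in lists that hold no SLC25A gene. Of 16 genes of carrier import (TOM and TIM subunits and AGK), 5 were higher and 3 lower, with a median log2 fold change of 0.01. TIMM9, a small chaperone of the intermembrane space that escorts carriers, had the largest rise, 0.73 (limma adjusted p = 1.77e-07), and TOMM22, a receptor subunit of the outer membrane, the largest fall, -0.51 (limma adjusted p = 2.48e-07). Of 22 measured transporters outside the family, 1 was higher and 9 were lower, with a median of -0.09 beside 0.01 over all genes. All 22 had an average log2 CPM of 1 or more, and at that level 30.5% of genes were higher and 31.4% lower. Over all 15953 genes the shares were 23.5% and 23.6%. The test against 1.2-fold gave 0 higher and 5 lower, and the higher call was lost without control replicate 3 or any 1 STIL-knockdown library. SFXN2, a sideroflexin, had the largest fall and decreased by 1.06 on the log2 scale (limma adjusted p = 1.92e-07).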

How the data were processed

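RNA-seq was measured in 3 control and 3 STIL-knockdown libraries of EJ cells, grouped by their labels. The authors sequenced on the BGISEQ-500, removed poor reads with SOAPnuke, used Bowtie2 to place the rest on reference transcripts and estimated reads per gene with RSEM, and the submitters' processing notes name hg38 and limma. The deposited log2 CPM values (15953 genes, 6 libraries), which the authors computed with edgeR, were used for every test. The deposited estimated counts from RSEM (15957 genes, 4 libraries) were used to check the reads recovered from the log2 CPM, which differed by at most 0.000494 reads. RSEM divides reads between similar transcripts, which makes near-identical paralogs uncertain.

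Groups were compared with limma 3.58.1 (lmFit, eBayes, trend on the mean; R 4.3.3) over all genes, with Benjamini-Hochberg adjustment and an adjusted p under 0.01 for DEGs, and with no replicate block. Fold changes are on the deposited log2 scale with a prior count of 2 reads, which understates changes of genes with few reads. Recovered reads were rounded for edgeR 4.0.16 and DESeq2 1.42.0. Other alternatives were no trend, quantile normalization, median centring, a minimum mean log2 CPM of 1, a prior count of 0.5, a test against 1.2-fold, an adjusted p of 0.05, the replicate block and leaving out each library.

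Members and lists were chosen with earlier results of these data known. All members enter the counts, and a few genes of the family and lists are not reported here by name. Values of each library are given for DEGs with an absolute log2 fold change of at least 0.5 and an average log2 CPM of 1 or more and for SLC25A3, SLC25A4, SLC25A5 and SLC25A6. From each list the largest called rise and fall are named where reported, and UCP1, UCP2, UCP3, MTCH1 and MTCH2. Libraries with the same number did not deviate together (correlations of -0.12, -0.06 and -0.11), so the numbers were not treated as pairs. Positions, lengths and coding sequences are from GENCODE 29 (GRCh38), and identity was computed from global alignments of 1 coding transcript per gene. Depth was 16214772 to 16901634 reads per library, and a gene with few reads has a wide counting error.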

Additional observations from a re-analysis of the deposited data

How the results depend on the processing

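Of the 20 DEGs, 8 passed in the same direction under all 16 alternatives: SLC25A1, SLC25A5, SLC25A10, SLC25A23, SLC25A35, SLC25A37, SLC25A38 and SLC25A43. Against 10 higher and 10 lower members, a fit without the mean-variance trend gave 6 higher, the test against 1.2-fold gave 3 higher and 5 lower, and an adjusted p of 0.05 gave 17 higher. In both directions together these settings called 14, 8 and 30 of the 46 members. They called 36.7%, 20.8% and 56.3% of all genes, so the member counts moved with the calls over all genes. Leaving out 1 library gave 5 to 10 higher and 6 to 8 lower members, while all genes called fell from 47.1% to between 30.7% and 35.3%. SLC25A6 was also lost without the trend and against 1.2-fold. edgeR, on recovered reads, called 23 members and DESeq2 18, beside 49.1% and 42.5% of all genes. With the replicate block, 9 members were higher and 9 lower, beside 43.2% of all genes called, and the calls of SLC25A13 and SLC25A26 were lost. The median log2 fold change of the members lay between 0.01 and 0.06 under the alternatives that gave one. Directions that reversed belonged to members that did not pass. Over the fits that left out 1 library, log2 fold changes lay between -0.018 and 0.0093 for SLC25A3 (above 0 without control replicate 1, and 0.0030 without STIL-knockdown replicate 1), between -0.072 and 0.063 for SLC25A30 (-0.010 without STIL-knockdown replicate 2), between -0.0017 and 0.066 for SLC25A17, between -0.804 and 0.0085 for SLC25A18, between -0.17 and 0.77 for SLC25A41 and between -0.20 and 0.33 for SLC25A47. The cause of these shifts was not tested. Depth limits the 9 members with a mean log2 CPM below 1.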
